A study of Drosophila melanogaster with 6 samples.

Results

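The comparison described here sets whole adult Drosophila melanogaster of the genotype gyc76c[revert], the control of the series, 12 hours after injection of Staphylococcus saprophyticus against flies of the same genotype 12 hours after injection of phosphate-buffered saline (PBS). It rests on 2 of the 6 arrays, chosen by their labelled genotype and injection, with 1 array on each side. The other 4 arrays hold the same 2 injections in gyc76c[KG03723], a labelled mutant of Gyc76C, which encodes a receptor guanylate cyclase, and in spz[rm7], a labelled mutant of spz, which encodes Spätzle, the ligand of Toll. The genotypes are called revert, KG03723 and rm7 below. The labels give no transgene, no sex and no number of flies per array, and the flies of every genotype were reared on standard cornmeal food.

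Staphylococcus saprophyticus is a Gram-positive bacterium. In flies, the peptidoglycan of most Gram-positive bacteria and microbial proteases start a cascade of serine proteases in the haemolymph that ends with cleavage of Spätzle, which binds the receptor Toll. Toll signalling then frees NF-κB factors from the inhibitor Cactus, and the fat body secretes Bomanins, Drosomycin and other peptides. A parallel route, the IMD pathway, acts through the NF-κB factor Relish and mainly answers Gram-negative bacteria.

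A gene was measured in revert when its signal, in the arbitrary units of the MAS5 algorithm, was above a floor of 42.7 on at least 1 of the 2 arrays, and signals under the floor were raised to it before the log2 was taken. Of 9655 measured genes, 59 (0.611%) were at least 2-fold higher after bacteria and 346 (3.58%) were at least 2-fold lower. The median log2 ratio over all measured genes was -0.0035. The split depended on the scaling: quantile normalization gave 82 higher and 159 lower genes, and cyclic loess gave 80 and 190. The log2 signals of the 2 arrays correlated across the 9655 genes with a Pearson r of 0.978, as a description only, since genes are not independent replicates. As a sign of RNA integrity, the 3' over 5' signal ratio was 2.44 after PBS and 2.29 after bacteria for actin, 2.12 and 1.99 for GAPDH, and 5.95 and 5.66 for eIF-4a. The gene of the KG03723 mutation could not be read alone, because all 3 probe sets that the annotation assigns to it are also assigned to CG42637. The brightest of these had a signal of 2092 after PBS and 2004 after bacteria in revert, against 1085 and 1234 in KG03723 and 1523 and 1583 in rm7. The ligand gene spz had a signal of 1059 after PBS and 1122 after bacteria in revert. Every ratio compares 2 libraries with no replicate, so no value has an error or a test.

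**Figure D1:**
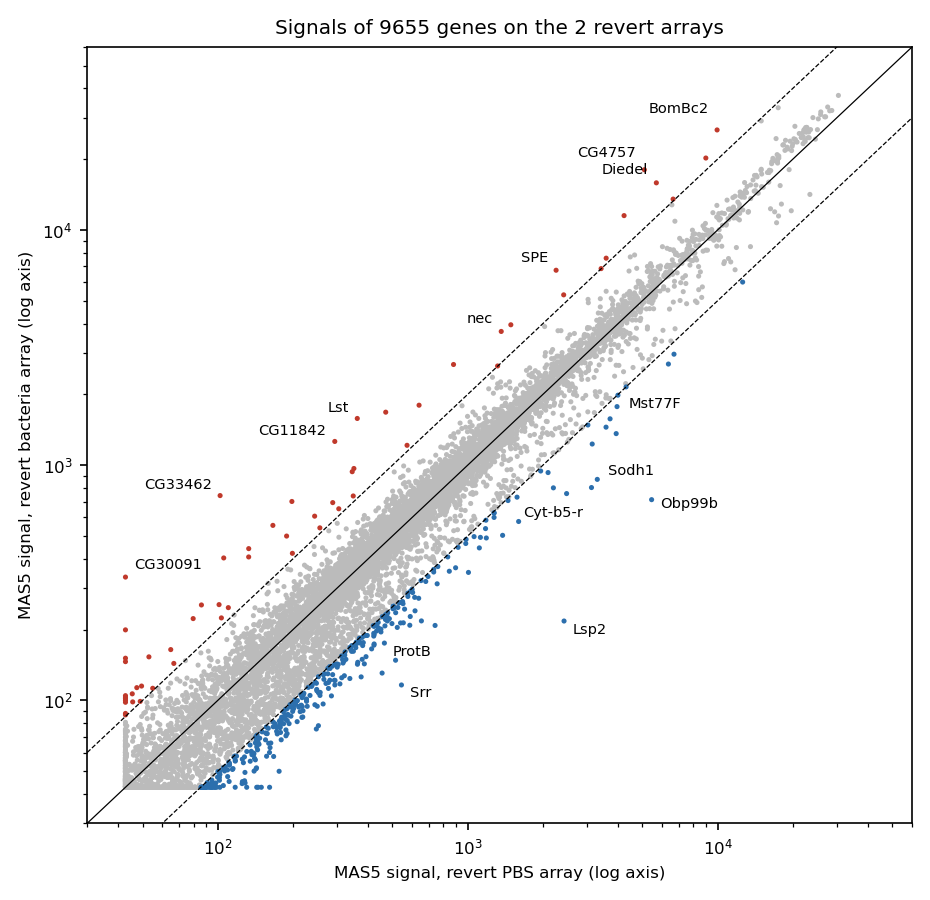
Signals of the 9655 measured genes on the revert PBS array (horizontal, log axis) and the revert bacteria array (vertical, log axis), with signals under 42.7 drawn at that floor. Dashed lines mark a 2-fold difference, red points the 59 genes at least 2-fold higher after bacteria and blue points the 346 at least 2-fold lower, many of which lie at low signals.

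Among the peptides that Toll signalling is known to induce, the higher signals after bacteria were those of the Bomanins, short secreted peptides that flies need to survive Gram-positive and fungal infection. Of 27 listed Toll-responsive peptides, 17 had a probe set of their own and 15 were measured. Of those, 3 were at least 2-fold higher, none was 2-fold lower and 13 were above 0, with a median log2 ratio of 0.44. Over all measured genes, 0.611% were at least 2-fold higher. BomT2 had a signal of 4226 after PBS and 11515 after bacteria, a log2 ratio of 1.45. BomBc2 went from 9958 to 26637 (log2 ratio 1.42) and BomBc3 from 8977 to 20235 (1.17). The other Bomanins were higher by less than 2-fold.

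BomT3, at 6566 and 12794, and BomS2, at 14956 and 29099.9, both had a log2 ratio of 0.96, just under the 2-fold line. BomS5 had a log2 ratio of 0.69, BomS6 of 0.45 and BomS4 of 0.07. The spread of the Bomanins thus ran from almost no difference to more than 2-fold within one gene family. The antifungal peptide gene Drs, the standard readout of Toll signalling, was already at 20396 after PBS and read 27602 after bacteria (0.44). Mtk, which encodes the antifungal peptide Metchnikowin, read 24081 and 30062 (0.32). Both genes thus had a high signal after saline alone and a ratio under 2-fold. Of the Drosomycin-like genes, Drsl4 and Drsl2 had log2 ratios of -0.33 and -0.14, and Drsl1, Drsl5 and Drsl3 of 0.13, 0.22 and 0.28.

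All 5 measured IMD-responsive peptides, of 13 listed, were above 0 and none reached 2-fold, with a median log2 ratio of 0.75. The cecropin gene CecB read 243 after PBS and 451 after bacteria (0.89). Def, for Defensin, a peptide active mainly against Gram-positive bacteria, read 4475 and 7683 (0.78). The elevated during infection gene edin read 4656 and 7832 (0.75). The remaining pair, DptB and AttD, for a diptericin and an attacin, had log2 ratios of 0.36 and 0.24. In KG03723 the median of these 5 genes was 0.12, and in rm7 it was 0.84. The differences between genotypes were not tested.

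The protease cascade upstream of Spätzle was split between members with large and members with small ratios. Of 11 measured genes of the extracellular Toll cascade, 4 were at least 2-fold higher, against 0.611% of all genes. These were 3 proteases and 1 inhibitor. Like the other lists, this list was chosen with earlier results of these data known. SPE, which encodes the Spätzle-processing enzyme that cleaves the ligand itself, read 2259 after PBS and 6745 after bacteria (log2 ratio 1.58). Hayan, for a clip-domain protease of Toll activation and melanization, read 133 and 407 (1.62), and spirit, for another clip-domain protease of the cascade, read 103 and 224 (1.12). The serpin gene nec, whose product restrains the protease Persephone, read 1363 and 3705 (1.44). Other members, proteases among them, gave no such ratio: the protease genes psh, for Persephone, and grass had log2 ratios of -0.17 and 0.37. The glucan-binding GNBP3 had -0.27, the ligand gene spz 0.08 and GNBP2, the lowest of the list, -0.52. The median of the list was 0.15 and lay between 0.080 and 0.372 under the alternatives.

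Inside the cell, 0 of 9 measured Toll pathway genes differed by 2-fold in either direction, and the median was 0.01. The largest ratio was that of cact, which encodes the inhibitor Cactus and is itself a known Toll target, with 3933 after PBS and 5447 after bacteria (0.47). Tl, for the receptor, had a log2 ratio of 0.05, the adaptor genes tub and Myd88 had -0.06 and -0.10, and pll, for the kinase Pelle, had 0.29. The NF-κB genes dl and Dif had 0.26 and -0.09, the last with both signals close to the floor. In the IMD pathway, 0 of 22 measured genes differed by 2-fold and 16 were above 0. Rel, for Relish, had the highest log2 ratio of these, with 1309 and 2129 (0.70), followed by the amidase genes PGRP-SC2 (0.59) and PGRP-LB (0.47), whose products remove peptidoglycan. PGRP-SB1 was lower, at 7289 and 5470 (-0.41).

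Serine proteases of the clip-domain and related families held 2-fold differences as well. Of 24 measured genes, 7 were at least 2-fold higher, 20 were above 0 and the median was 0.51, against 0.611% of all genes at least 2-fold higher. The list was assembled with earlier results of these data known, so this count is no independent sign. The 24 come from 37 genes with a probe set of their own, and 5 of the 24 were at the floor on 1 array. CG30091, CG18557 and CG30287 counted as measured only through their signal after bacteria, which favours a high count and a high median. CG33462 read 102 after PBS and 743 after bacteria, a 7.27-fold ratio. CG30091 was under the floor after PBS, at 39.7, and read 334 after bacteria, so its ratio was at least 7.83-fold. CG11842 read 294 and 1262 (log2 ratio 2.10), CG30098 133 and 442 (1.73) and CG18563 86.0 and 255 (1.57). For CG18557 and CG30287, with PBS signals of 34.3 and 34.7, the ratios were at least 4.67-fold and at least 3.42-fold.

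Serpins, a family of protease inhibitors, went both ways: of 22 measured genes, 2 were higher by 2-fold or more and 2 were lower by as much. The shares over all genes were 0.611% higher and 3.58% lower. Spn88Eb read 639 and 1799 (1.49), and Spn28Dc, whose product holds back phenoloxidase, read 289 and 693 (1.27). Spn28F was lower, at 3960.4 after PBS and 1775 after bacteria (-1.16), and so was Spn28Da, at 187 and 91.7 (-1.03). The log2 ratios of Spn28F and Spn28Da were 0.04 and -0.17 in KG03723 and 0.38 and 0.59 in rm7. Whether they belong to an immune response was not tested. The 12 measured melanization genes had a median of 0.30. At least 2-fold higher were 2 of them, Hayan and Spn28Dc, both named above, against 0.611% of all genes. The prophenoloxidase genes PPO1 and PPO2, expressed in crystal cells, had log2 ratios of -0.31 and -0.42.

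**Figure D2:**
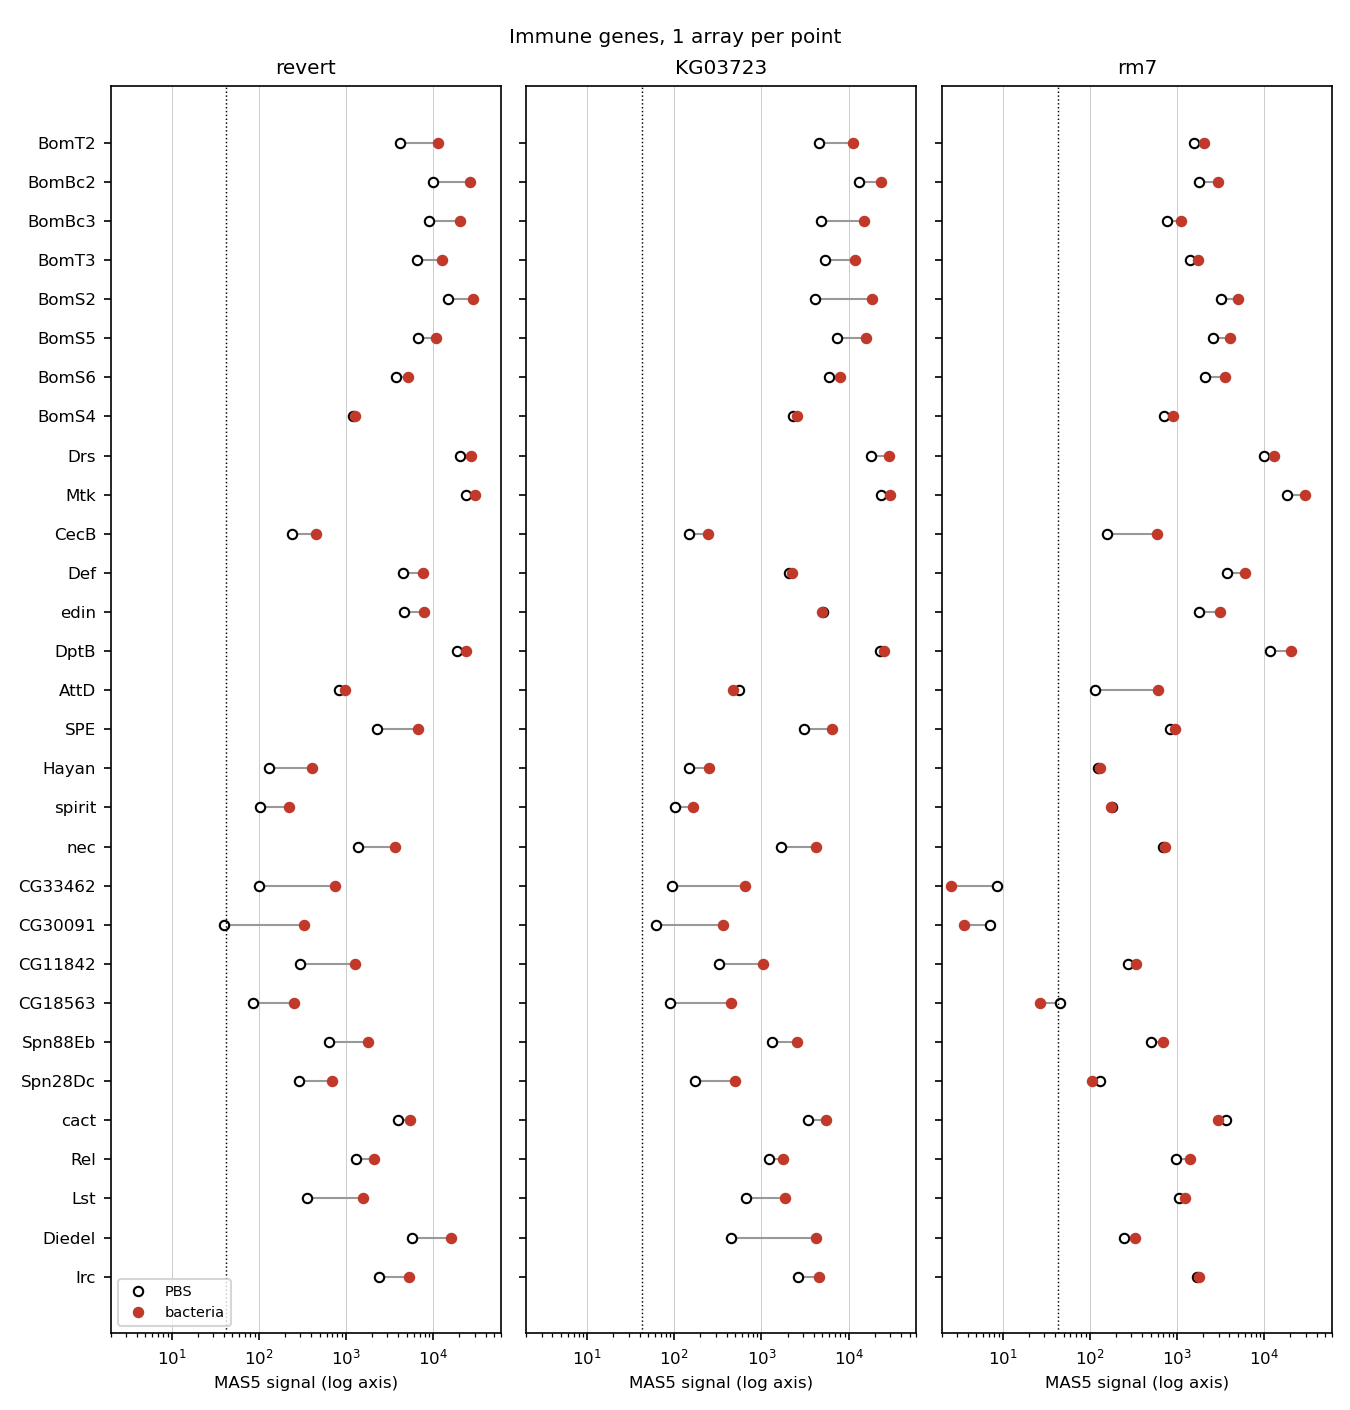
MAS5 signals (horizontal, log axis) of immune genes after PBS (open points) and after bacteria (red points), with 1 array per point and 1 panel per genotype, and the floor of 42.7 as a dotted line. The genes drawn are a selection that all read higher after bacteria in revert, and members that read lower, such as Drsl4 and PGRP-SB1, are not drawn. In revert the widest gaps belong to the serine protease genes CG33462 and CG30091, which stayed under the floor on both rm7 arrays.

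Outside the Toll and IMD lists, the higher genes included secreted factors and enzymes. Lst, for Limostatin, a peptide hormone that restrains insulin secretion, read 362 after PBS and 1580.4 after bacteria, a 4.37-fold ratio. The revert PBS signal was the lowest of the 6 arrays for Lst. It read 660 after PBS and 1884 after bacteria in KG03723, and 1062 and 1236 in rm7. The other 17 measured hormone and insulin signalling genes stayed within 2-fold, the lowest being AkhR, for the adipokinetic hormone receptor of the fat body (401 and 233, log2 ratio -0.78). Diedel, for a small secreted cytokine-like protein that restrains the IMD pathway, read 5690 and 15872 (1.48). The stress peptide gene TotC, from the same list of JAK-STAT and stress genes, read 25098 and 26711 (0.09). Irc, for the immune-regulated catalase, read 2423 and 5301 (1.13).

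Several of the largest ratios belonged to genes that the files name only by number. CG4757 read 5095 and 18037 (1.82). CG30026 read 470.0 and 1681 (1.84), CG16772 878 and 2681 (1.61) and CG6553 106 and 403 (1.93). CG9616 read 198 and 701 (1.82), and its close neighbours Sp212 and CG9631, chosen for mention after their values were seen, had log2 ratios of 1.48 and 1.09. These lie within 3 places of each other in gene order on chromosome arm 3R, and together with BomBc2 and BomT2 they formed the 2 runs of neighbours among the 59 genes. Sid, for a stress-induced DNase and also mentioned after its values were seen, read 345 and 939 (1.44). At the dim end, CG13427 was at least 3.54-fold, CG34205 at least 2.45-fold and CG42680 at least 2.42-fold higher. CG12998 read 166 and 555 (1.74).

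The largest differences of the comparison lay in probe sets that the annotation assigns to no gene or to several, and these are named by their identifier. The probe set 1627759_at read 434 after PBS and 8707 after bacteria, a log2 ratio of 4.33. It shares its annotated genes, CG42662 and CG30080, with 1628387_s_at, which read 586 and 7659 (3.71). The probe set 1636293_at, annotated to CG42740 and CG2217, read 520 and 7098 (3.77), and 1629530_at, with no annotated gene, read 2517 and 16339 (2.70). In the other direction 1628699_at, also without a gene, read 8536 after PBS and 538 after bacteria (-3.99). Of 1287 such probe sets measured, 19 were higher by 2-fold or more and 29 lower. The shares were 1.45% higher and 1.14% lower with no gene, and 1.55% and 5.57% with several. Among probe sets of a single gene they were 0.572% and 3.5%. In KG03723 the ratios of 1627759_at, 1628387_s_at, 1636293_at and 1629530_at were 5.06, 4.12, 2.07 and 1.82, and in rm7 they were 0.03, 0.35, 0.61 and -0.25.

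Single genes for storage, odorant-binding and metabolic proteins were among those with the lowest ratios after bacteria, while the list of fat body markers as a whole had a median of -0.05. Of its 13 measured members, 1 was at least 2-fold lower (Lsp2) and 4 were above 0, against 3.58% and 49.4% of all genes. Lsp2, for a storage hexamerin of the haemolymph, read 2431 after PBS and 218 after bacteria, 11.2-fold lower. Obp99b and Obp99a, for odorant-binding proteins, read 5447 and 714 (log2 ratio -2.93) and 2203 and 801 (-1.46). Sodh1, for a sorbitol dehydrogenase, read 3302 and 871 (-1.92), and Cyt-b5-r, for a cytochrome b5-related protein, read 3130 and 804 (-1.96). Srr, for serine racemase, read 543 and 116 (-2.22).

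The wider lists for these functions showed many small differences below 0. Over all measured genes, 50.6% were below 0 and 3.58% were at least 2-fold lower. Of 35 measured carbohydrate metabolism genes, 29 were below 0 and 1 was 2-fold lower (Sodh1), with a median of -0.22. Next came G6P, for glucose-6-phosphatase (112 and 59.3, -0.92), and fbp, for the gluconeogenic fructose-1,6-bisphosphatase (2191 and 1344, -0.71). Pepck1 and Pepck2, for the enzymes that commit carbon to gluconeogenesis, had log2 ratios of -0.48 and -0.64. In lipid metabolism, 19 of 32 measured genes were below 0, none was 2-fold apart and the median was -0.07. FASN1, for fatty acid synthase, read 8157 and 4990.1 (-0.71), apolpp, for the main lipid carrier of the haemolymph, 17227 and 10740 (-0.68), and Lsd-1, for the lipid droplet protein perilipin, 1898 and 1253 (-0.60). LpR2, for a lipophorin receptor, was at the other end, with 1074 and 1636 (0.61).

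Cytochrome P450 genes, for oxidases of hormones and foreign compounds, were below 0 in 49 of 65 cases, with a median of -0.21 (-0.10 with quantile normalization). None was 2-fold higher and 4 were at least 2-fold lower, a count to be read against 3.58% of all genes. Cyp4e3 read 741 and 208 (-1.83), Cyp309a1 653 and 218 (-1.58), and Cyp312a1 423 and 207 (-1.03). Cyp4ac2, at 87.4 after PBS and under the floor after bacteria, at 33.4, was at least 2.05-fold lower. Odorant-binding protein genes were below 0 in 24 of 29 cases, with a median of -0.25. The bright fat body transcripts did not all follow: the yolk protein genes Yp1, Yp2 and Yp3, expressed in the female fat body and ovary, read between 23265 and 30295 on both arrays, with log2 ratios of 0.16, 0.09 and -0.02. The iron carrier gene Tsf1 had 0.13, and fit, a female-biased fat body gene, had -0.50.

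**Figure D3:**
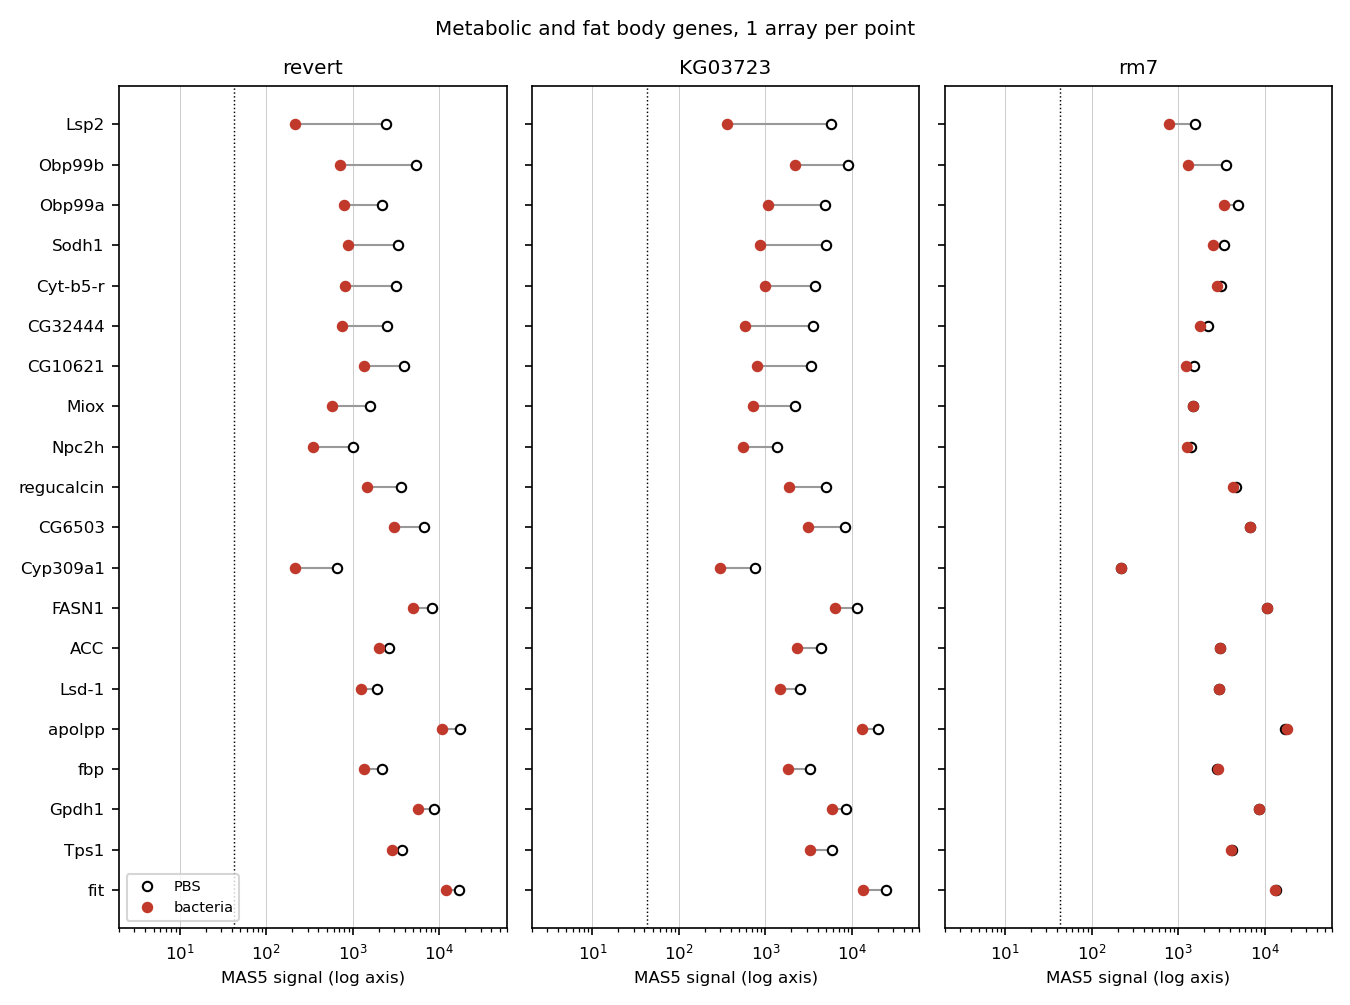
MAS5 signals (horizontal, log axis) of metabolic and fat body genes after PBS (open points) and after bacteria (red points), with 1 array per point and 1 panel per genotype. In revert Lsp2 has the widest gap. The genes drawn are a selection that all read lower after bacteria in revert, so their common direction follows from the choice. Members of the same lists that read higher, such as LpR2 and Yp1, are not drawn.

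Many of the 346 lower genes were dim. The brighter of the 2 signals was under 200 for 147 of them (42.5%), against 26.4% of all measured genes, and with the brighter signal required to be at least 200, 199 genes remained at least 2-fold lower. Blimp-1, for a transcriptional repressor, was at least 3.50-fold lower, and CG13040 at least 3.77-fold. The bounds were 3.39-fold for CG42383, 3.35-fold for CG15263, 3.06-fold for CG14071 and 2.75-fold for CG13984. The C-type lectin gene lectin-21Ca read 176 and 50.0 (-1.82). Low ratios also belonged to CG11327 (-1.80), CG4950 (-1.80), CG32444 (-1.72), dbf (-1.71) and Muc4B (-1.70). For 222 of the 346 genes (64.2%) the revert PBS array had the highest signal of the 6 arrays. The revert bacteria array had the lowest for 294 (85.0%), and both held for 185. Over all measured genes, 16.3% had the first position and 19.7% the second. Choosing genes by this ratio favours both positions, so these counts describe the genes and test nothing.

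Transcripts of the male reproductive tract were lower as a group after bacteria in revert. Of 45 listed testis and sperm markers 37 were measured. Of these, 34 were below 0, 7 were at least 2-fold lower and none was 2-fold higher, against 3.58% of all genes at least 2-fold lower. The median log2 ratio was -0.83 against -0.0035 for all genes. ProtB, for a protamine of the sperm nucleus, read 464 after PBS and 175 after bacteria (-1.41), Mst77F, for another sperm chromatin protein, 3993 and 1985 (-1.01), and betaTub85D, for the testis β-tubulin, 1920 and 991 (-0.95). The members above 0 were dhd, CycB3 and mia. Of these, dhd, at 22678 and 26102, is a gene of the female germline and is misplaced in this list, and CycB3 is also expressed in the ovary. Less RNA per cell and fewer cells of a type, or fewer males among the flies, cannot be told apart in whole-fly RNA.

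The seminal fluid genes of the male accessory gland followed, with 27 of 29 below 0 and a median of -0.63. At least 2-fold lower were 2 of the 29, again against 3.58% of all genes. Acp53C14c read 844 and 354 (-1.25), Sems, for a seminal protease, 651 and 323 (-1.01), and Acp26Aa, for the ovulation hormone ovulin, 5477 and 2923 (-0.91). Of 27 ovary germline markers, 19 were above 0 with a median of 0.07, and the 16 chorion and vitelline membrane genes had a median of -0.04. In KG03723 the medians of the testis and accessory gland lists were -0.04 and -0.06, and in rm7 they were 0.51 and 0.43. The ovary germline and chorion medians were 0.20 and -0.02 in KG03723 and -0.17 and -0.35 in rm7, where 23 of the 27 ovary germline markers were below 0. The revert PBS array was above both other PBS arrays for 29 of the 37 testis markers, and the revert bacteria array was below both other bacteria arrays for 31. For the accessory gland those counts were 23 and 14 of 29. The shares of all measured genes in these positions were not computed, so the counts have no background beside them. Without the listed reproductive markers, 337 genes were at least 2-fold lower and 59 at least 2-fold higher. Genes of these tissues outside the lists were not removed, so this count does not measure the part of male tissue. The part of male tissue content in these lower genes was not tested further.

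**Figure D4:**
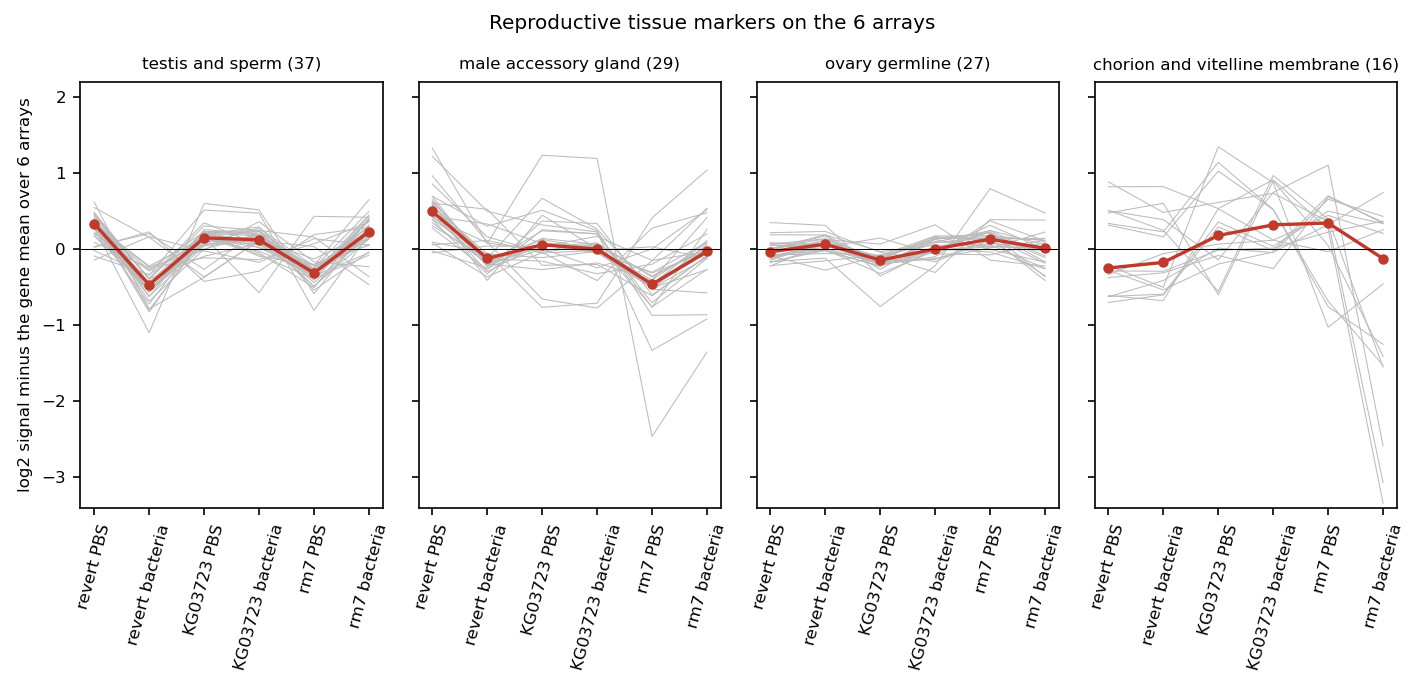
Log2 signal of each measured marker minus its own mean over the 6 arrays (vertical axis), with the arrays along the horizontal axis, grey lines for single genes and red points for the list median. The testis median is 0.33 on the revert PBS array and -0.47 on the revert bacteria array, the accessory gland median goes from 0.49 to -0.13, and the ovary germline median from -0.04 to 0.06.

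Among genes of the mitochondrial respiratory chain, a group of paralogues had a lower median than the rest. Of 72 measured oxidative phosphorylation genes, 18 are paralogues whose symbol adds an L to that of another subunit, a division made after the values were seen. Of these 18, 17 were below 0 and 3 were at least 2-fold lower, against 3.58% of all genes, with a median of -0.75. The other 54 subunits had a median of -0.0056 with 25 above and 29 below 0. ND-24L read 143 and 51.7 (-1.47), ATPsynCF6L 295 and 122 (-1.28) and COX7AL 559 and 244 (-1.19). In KG03723 and rm7 the medians of the 18 were 0.0020 and 0.39.

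Several large housekeeping groups held no 2-fold difference while most of their members had one sign. The machinery that brings proteins into the endoplasmic reticulum and folds them there was above 0 in 33 of 34 genes, with a median of 0.19 and no member at 2-fold. TRAM, for a protein of the translocation channel, read 2363 and 3733 (0.66) and Gp93, for an Hsp90-type chaperone, 2048 and 3011 (0.56). Mitochondrial ribosomal protein genes were above 0 in 64 of 69 cases (median 0.15) and proteasome genes in 24 of 26 (median 0.08, and 0.0016 with cyclic loess). Cytosolic ribosomal protein genes were above 0 in 33 of 40 cases with a median of 0.24, but quantile normalization turned that median to -0.0098. The lowest of these was RpL10Aa, at 425 and 222 (-0.94). Of all measured genes, 49.4% were above 0.

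Among markers of other organs, 16 of 17 photoreceptor genes were below 0 with a median of -0.32, the lowest being ninaB, for the enzyme that makes retinal, at 91.9 and 58.0 (-0.66). Gut digestive enzymes were above 0 in 30 of 35 cases (median 0.18). The only member at 2-fold, against 0.611% of all genes at least 2-fold higher, was Ser7, a serine protease gene, at 572 and 1215 (1.09). Its ratios in KG03723 and rm7 were 0.75 and 0.13, against list medians of -0.19 and 0.21, and its place among gut enzymes was not tested. Muscle markers had a median of -0.05 over 21 genes and plasmatocyte and basement membrane markers of -0.04 over 18. Of 16 measured thioester proteins, nimrods and phagocytic receptors, 13 were above 0, with a median of 0.18. Among blood cell genes the clotting gene Hml had a log2 ratio of -0.86 (576 and 318) and the phagocytic receptor gene NimC1 of -0.63, while NimB3, for a secreted protein of the same family, had 0.74 (1355 and 2261).

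**Figure D5:**
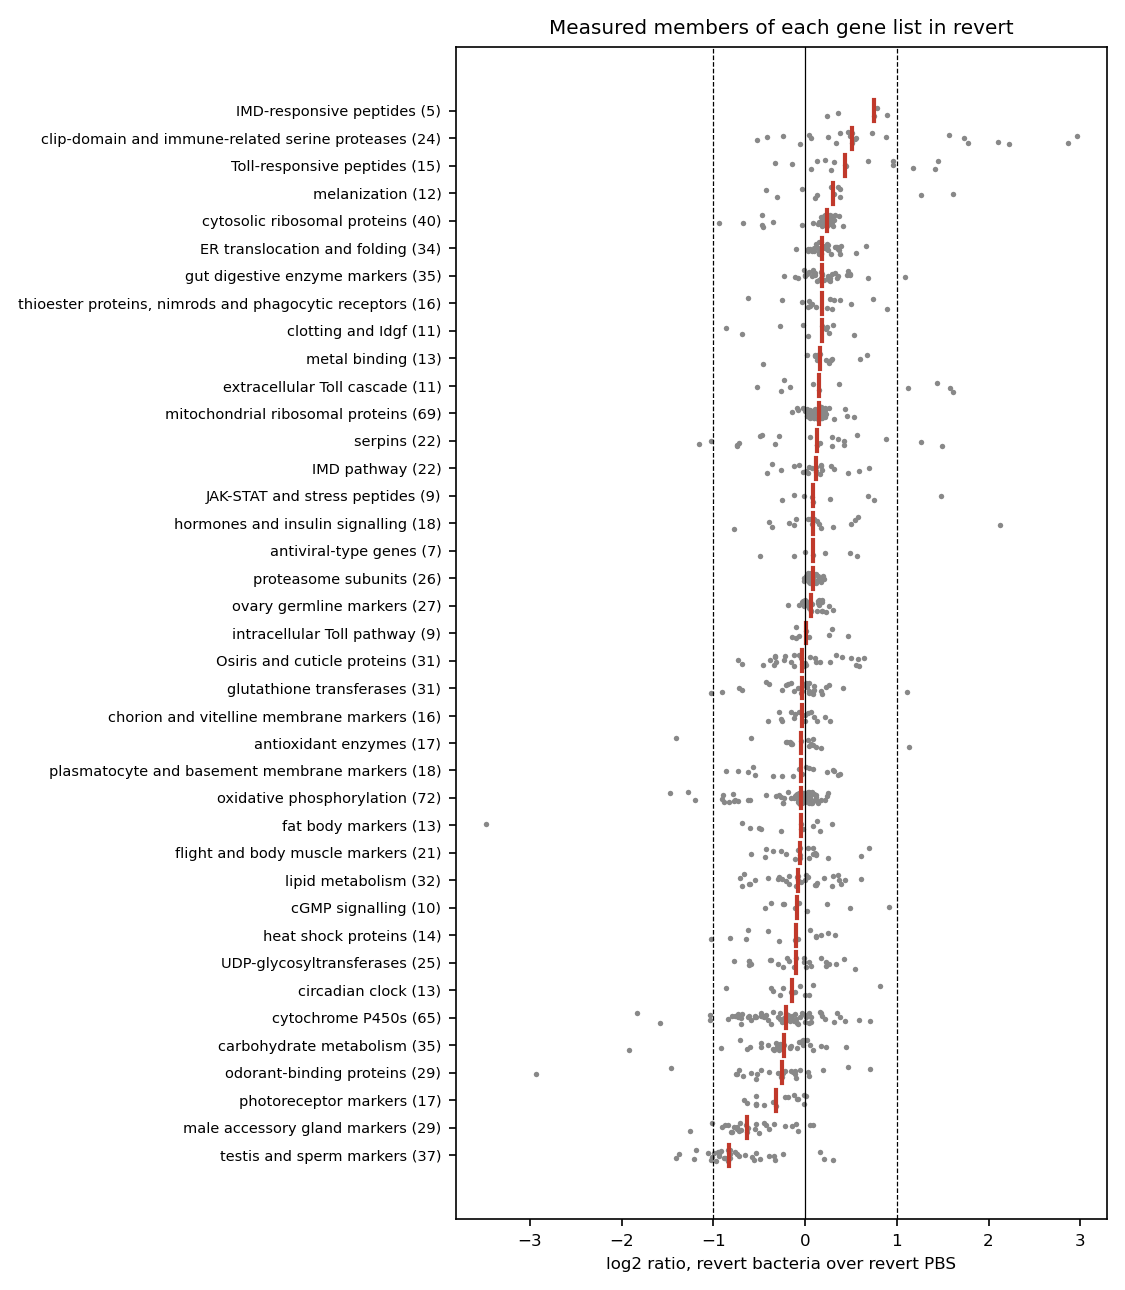
Log2 ratio of revert bacteria over revert PBS (horizontal axis) for the measured members of each gene list with at least 5 of them (a list of trypsin-like genes by name is not drawn), with the number measured in brackets, grey points for genes and red bars for medians. Dashed lines mark 2-fold. Among the lists drawn, the IMD-responsive peptides have the highest median (0.75) and the testis and sperm markers the lowest (-0.83).

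The genes that differed in revert were then read in the other genotypes. KG03723 had 48 genes at least 2-fold higher (0.496% of 9669) and 87 at least 2-fold lower (0.9%), and rm7 had 63 (0.644% of 9783) and 33 (0.337%). Of the 59 genes higher in revert, 22 were also at least 2-fold higher in KG03723, which is 37.3% of the revert genes and 45.8% of those in KG03723. In rm7, 51 of the 59 were measured and none reached 2-fold. The others were under the floor on both rm7 arrays and have no ratio there, and with them at 0 the median of the 59 was 0.08. The 22 shared genes, among them SPE, nec, BomT2, BomBc3, Lst, Diedel and Spn28Dc, were chosen for their ratios in revert and KG03723, and had a median of 0.12 in rm7. The remaining 37 had medians of 0.47 in KG03723 and 0.05 in rm7, and Hayan (0.79 in KG03723), spirit (0.71) and BomBc2 (0.86) belonged to them. The median of the 59 genes in KG03723 was 0.78. No replicate shows how far such ratios vary between arrays of one genotype.

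Of the 346 genes lower in revert, 24 were at least 2-fold lower in KG03723 too, which is 6.94% of the revert genes and 27.6% of those in KG03723. These 24 held Lsp2, Obp99a, Obp99b, Sodh1, Cyt-b5-r, Cyp309a1 and Cyp4ac2 of the genes named above, but not Srr, Cyp4e3 or Cyp312a1, whose KG03723 ratios were -0.79, -0.24 and -0.21. Of the 346 genes, 9 were testis or accessory gland markers, and none of these was among the 24. Since the 24 were only 6.94% of the 346, none of 9 is near that share and does not set the markers apart. These 9 were 7 of the 37 testis and 2 of the 29 accessory gland markers measured, against 3.58% of all genes. The choice of the 24 fixes their ratios in revert and KG03723, and their median in rm7 was -0.14. Further members, mentioned after their values were seen, were regucalcin, for a calcium-binding protein (3579 and 1452 in revert, -1.30), Miox, for the inositol-degrading oxygenase (1599 and 576, -1.47), and Npc2h, for a sterol-binding protein family member (1007 and 350.1, -1.52). The KG03723 ratio was below 0 but within 2-fold for 174 of the 346 genes and at 0 or above for 148, and the rm7 medians of those groups were 0.40 and 0.50. Over all 346 genes the median was -0.06 in KG03723 and 0.43 in rm7, where 294 were above 0. The lipid genes FASN1, apolpp and Lsd-1 had log2 ratios of -0.85, -0.60 and -0.77 in KG03723 and of 0.01, 0.07 and -0.03 in rm7.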

How the data were processed

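RNA of whole adult flies was hybridised to 6 Affymetrix arrays of 1 colour, with 3 genotypes and 2 injections. The authors deposited a linear intensity for every probe set. It came from MAS5, per the submitters' processing notes, with no version stated. After the authors' scaling, the 2% trimmed mean was 500.0 on every array. Batch information was not used here. Of 18952 probe sets, 183 were controls, and the platform annotation gave 1 gene for 13647, several for 402 and none for 4720. The RefSeq gene table (assembly Release 6) held 13544 of the 13647, and the brightest probe set stood for each of 11982 genes.

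A floor of 42.7, at the 40th percentile of the deposited values, replaced lower signals, and the log2 ratio of bacteria over PBS was taken. With the dimmer array at the floor the ratio is a bound, written "at least". Of the 9655 genes measured in revert, 9111 were above the floor on both arrays and 544 on 1. Depth has no counterpart on arrays, and their number limits the precision. With 1 array per group no test was made. Gene lists were described by counts past 2-fold and medians, beside the same over all genes. The genes named are the mutated ones, the 12 highest and 12 lowest above the floor on both arrays, the 6 largest bounds each way, every measured Toll- and IMD-responsive peptide, the 6 largest ratios and the brightest member in each described list, and members whose role orders the text. Members and lists were chosen with earlier results of these data known. An entry of the testis list that matched an unrelated gene through an old synonym was taken out.

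Alternatives were quantile and cyclic loess normalization (limma 3.58.1 in R 4.3.3), median centring, the 20th and 60th percentile as floors, a pseudocount, the mean over probe sets, a 3-fold threshold, all probe sets and a count without reproductive markers. The counting was tested on simulated data. Python 3.11.15, numpy 2.4.6 and pandas 2.3.3 were used. No sequences are shown.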

Additional observations from a re-analysis of the deposited data

Results flagged for a closer look

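Some values had opposite signs in revert and rm7, and none of these differences was tested. The median log2 ratio of bacteria over PBS was -0.83 in revert and 0.51 in rm7 for the testis and sperm markers, -0.63 and 0.43 for the male accessory gland markers, and -0.32 and 0.22 for the photoreceptor markers. Single genes far apart were lectin-21Ca (-1.82 in revert and at least 0.76 in rm7), dbf (-1.71 and 0.84) and ProtB (-1.41 and 0.87). Others were alphaTub85E (-1.38 and 0.89), Prosalpha4T2 (-1.21 and 0.79), Mst84Da (-1.05 and 0.76), Acp53C14c (-1.25 and 1.11) and COX7AL (-1.19 and 0.78). The rm7 PBS signal of lectin-21Ca was under the floor, at 34.7. On the revert bacteria array alphaTub85E and Prosalpha4T2 were close to the floor, at 49.4 and 47.4. CG34205 went the other way, with at least 1.29 in revert, where its PBS signal of 37.8 was under the floor, and -0.97 in rm7.

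Of the 1287 measured probe sets outside the gene counts, because the annotation gives them no gene or several, 19 were higher by 2-fold or more in revert and 29 were lower. The 964 with no gene held 14 of the higher and 11 of the lower ones (1.45% and 1.14%). The 323 with several genes held 5 and 18 (1.55% and 5.57%). For probe sets of a single gene the shares were 0.572% and 3.5%.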

How the results depend on the processing

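The 59 higher genes became 257 with the floor at the 20th percentile, 30 at the 60th and 15 at 3-fold. The 346 lower genes became 159 with quantile normalization, 190 with cyclic loess, 645 with the lower floor, 76 with the higher floor, 98 with a pseudocount equal to the floor and 17 at 3-fold. They became 199 where the brighter signal had to reach 200, an alternative chosen after seeing the data, as was the count over genes above the floor on both arrays. The lower and higher floors change how many genes are measured. For the other settings the cause was not tested. The share of higher genes among both directions was 14.6% as reported and 34.0% with quantile normalization. No setting moved the median of all genes by over 0.1. Of the list medians at least 0.1 from 0, those of 2 lists turned sign, the cytosolic ribosomal proteins (-0.0098 with quantile normalization) and the UDP-glycosyltransferases, from -0.10 to 0.088 with quantile normalization and 0.018 with cyclic loess. Medians nearer 0 also crossed it with quantile normalization, to 0.15 for Osiris and cuticle proteins, 0.016 for cGMP signalling and 0.014 for glutathione transferases. Of 280 recomputed list medians, 258 moved little. The testis median lay between -0.84 and -0.75 under all settings, and that of the Toll-responsive peptides between 0.32 and 0.44. Of 67 named genes at least 2-fold apart, 32 stayed so under every alternative. At the higher floor the bounds of CG18557, CG30287, CG13427, CG34205, CG42680, CG13040, Blimp-1, CG42383, CG15263, CG14071 and CG13984 came to 0, since both signals then lay under it. No paired analysis was possible because each group holds 1 array, and for the same reason no replicate could be left out.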

Other observations

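A few values fell outside the groups described above. Clock genes had a median log2 ratio of -0.14 over 13 genes, and none was 2-fold apart. The period gene per read 91.7 after PBS and 162 after bacteria (0.82), while tim, its partner, read 2492 and 2244 (-0.15). Metal-binding genes were above 0 in 12 of 13 cases with a median of 0.16, led by the metallothionein genes MtnB (1268 and 2023, 0.67) and MtnD (4423 and 6693, 0.60). Prx1, for a peroxiredoxin, read 250.1 and 94.4 (-1.41). Antiviral-type genes, among them Nazo at 802 and 1185 (0.56) and Sting at 943 and 1001 (0.09), had a median of 0.09 over 7 genes.

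Only 1 of the 59 higher genes, SLO2, had a second measured probe set, and that one had a ratio of the opposite sign. All 11 of the 346 lower genes with a second measured probe set had the same sign there, 5 of them at 2-fold. Of the 346 lower genes, 91 lay in 41 runs of neighbours within 3 places of each other in gene order. The share of such runs among other genes was not computed.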
